A study of Triticum aestivum with 4 samples.

Results

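Small RNA of leaves at the jointing stage, collected 192 days after sowing, was compared with small RNA of leaves at the three-leaf stage, collected 23 days after sowing. These are the last and the first of 4 stages sampled from field-grown wild-type plants of Shimai 22, a semi-winter cultivar of bread wheat, with no treatment at any stage, and the comparison uses 2 of the 4 libraries with every miRNA that both deposited tables hold. At each stage the top pair of fully expanded leaves was taken in the early afternoon, and equal amounts of RNA from 3 biological replicates were pooled, so 1 small RNA library stands for each stage and the difference between plants could not be measured. Plant age, leaf position on the plant, day length and season all differed between the stages and cannot be told apart. A whole leaf holds many cell types, and fewer cells of a type cannot be told apart from less miRNA per cell; the miRNA tables hold no marker genes by which the tissue could be checked.

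The tables give 371 named known miRNAs, grouped here into 290 families, and 82 miRNAs predicted from the wheat genome. Values are in TPM, the tags of a miRNA scaled to an equal number of mapped reads in every library. The three-leaf stage is written three-leaf beside its values. The jointing library had about 21830000 mapped reads and the three-leaf library about 20300000, so 5 TPM rests on about 109 reads in the jointing library and 102 in the three-leaf library, with 95% Poisson intervals of 4.10 to 6.02 TPM and 4.10 to 6.10 TPM. Known miRNAs took 17.6% of the mapped reads at jointing and 19.1% at three-leaf. The lowest value above 0 among known miRNAs was 0.5 TPM in both libraries, so a name listed at 0 may still have had a few reads.

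Plant miRNAs are cut by a Dicer-like enzyme from hairpin precursors as a duplex of a guide strand and its partner, the miRNA*. The guide strand is loaded into an Argonaute protein and directs cleavage or translational repression of messenger RNAs with a nearly complementary site. As plants age, miR156, which targets SPL transcription factors and holds the plant in its juvenile phase, is known to decline, and miR172, which represses AP2-like transcription factors, is known to increase and to promote the adult phase and flowering. In cereals, jointing is the stage at which the stem begins to elongate and the spike is already forming.

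Sequences of known miRNAs with well-studied roles that the results turn on are printed here, 5′ to 3′, with the seed (bases 2 to 8) in capitals; they were read from the sequence column of the study's own list of known miRNAs, and each is the representative of a name that can collect several closely related reads. The first set was higher at jointing and holds regulators of flowering, auxin signalling and copper proteins, with both strands of the miR530 and miR172 duplexes.
miR528-5p: uGGAAGGGgcaugcagaggag
miR530-5p: cUGCAUUUgcaccugcaccua
miR530-3p: aGGUGCAGuggcauaugcaac
miR172a-5p: gCAGCACCaccaagauucaca
miR172e-3p: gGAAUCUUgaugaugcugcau
miR160a-5p: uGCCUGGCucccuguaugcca
miR167a: uGAAGCUGccagcaugaucuga
miR393-5p: uUCCAAAGggaucgcauugau
miR397a: uUGAGUGCagcguugaugaac
miR398a-3p: uGUGUUCUcaggucgcccccg
miR408d: uGCACUGCcucuucccuggc
miR482b: uCUUGCCUacuccacccaugcc
miR2118: uUGCCGAUuccacccaugccua
miR9672b: uACCACGAcugucauuaagca

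The second set was lower at jointing, apart from miR319a-3p, which is shown because it is a close relative of miR319b-3p and was listed only at jointing, and miR168a-5p and miR156a-5p, which are shown as the most abundant name and as the marker of the juvenile phase.
miR159a.1: uUUGGAUUgaagggagcucug
miR319b-3p: uUGGACUGaagggugcucccu
miR319a-3p: cUUGGACUgaagggagcucccu
miR5200a-3p: uGUAGAUAcucccuaaggcuu
miR2275b-5p: cUUGGAGGaaaaacaaagcca
miR9778: uGCAUCAUcucgaacucgucg
miR9662a-3p: uUGAACAUcccagagccaccg
miR168a-5p: uCGCUUGGugcagaucgggac
miR156a-5p: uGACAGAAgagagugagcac

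More miRNAs were listed in the jointing leaf than in the seedling leaf: 294 known names were above 0 at jointing, against 240 at three-leaf, with 205 above 0 in both libraries, 89 at jointing only, 35 at three-leaf only and 42 in neither. A name was counted as higher or lower when its level at jointing differed more than 2-fold from that at three-leaf and was over 5 TPM in at least 1 of the libraries. By this rule 92 of 371 known names (24.8%) were higher at jointing and 54 (14.6%) were lower, and of the family sums 70 of 290 (24.1%) were higher and 42 (14.5%) lower. Of the 92 higher names, 53 were listed at 0 at three-leaf, and of the 54 lower names, 25 were listed at 0 at jointing. Among the 205 names listed in both libraries the levels were centred near equality, with a median log2 fold change of 0.04, and 97 of them lay within 1.5-fold. With 1 library per stage these counts compare the libraries and have no replicate check, so no p-value is given, and each interval given with a fold is a 95% exact interval of the fold that covers counting error only.

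**Figure D1:**
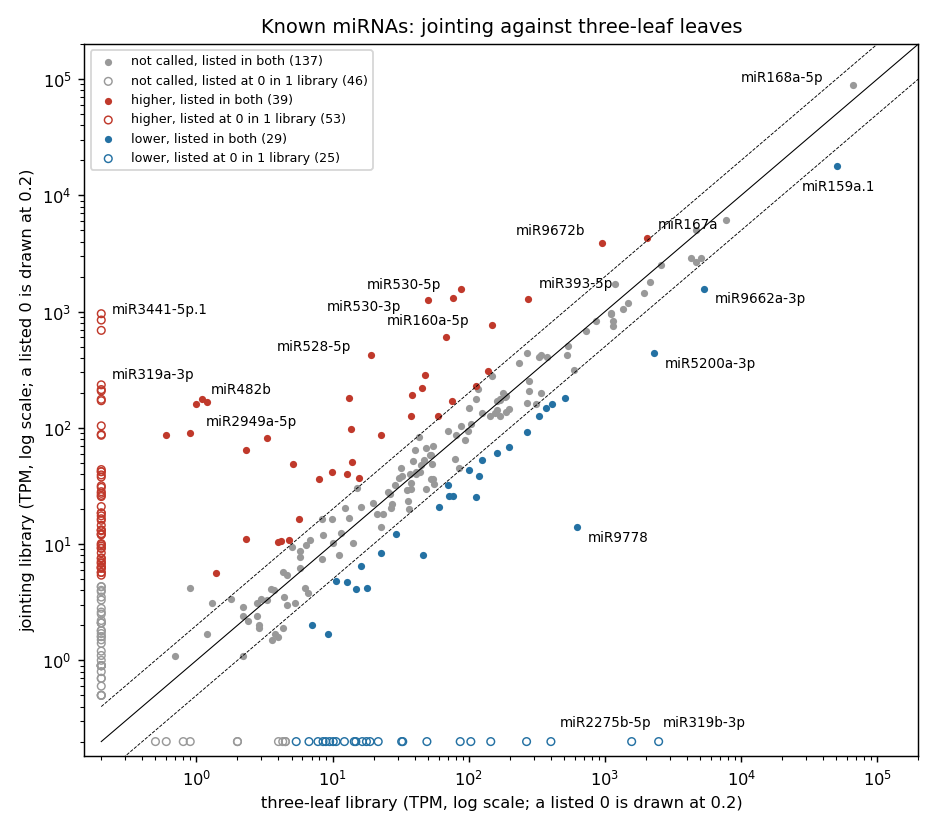
Level of each known miRNA at jointing (vertical axis) against three-leaf (horizontal axis), both in TPM on log scales, with a listed 0 drawn at 0.2 TPM. The solid line marks equal levels and the dashed lines 2-fold; red points are the 92 names higher at jointing, blue points the 54 lower, and open symbols are names listed at 0 in 1 library.

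A few families held most of the known miRNA in both leaves, and their balance differed. miR168 targets AGO1, the main Argonaute of the miRNA pathway, and miR159 targets GAMYB-like MYB transcription factors. miR168a-5p had 88561.2 TPM at jointing and 66115.8 TPM at three-leaf, a 1.34-fold difference that stayed within 2-fold, and its partner strand miR168-3p had 4983.6 and 4674.7 TPM. miR159a.1 had 17875.4 TPM at jointing, against 50794.9 TPM at three-leaf, and was 2.84-fold lower (interval 2.83 to 2.85). The miR168 family thus made up 53.0% of the known miRNA signal (summed TPM) at jointing and 37.1% at three-leaf, while miR159 made up 10.1% at jointing and 26.6% at three-leaf.

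All values are relative to the mapped reads of a library, and another base for scaling moves every name. When the libraries were scaled to the summed known and predicted miRNAs without miR168, all log2 folds moved up by 0.54, and the counts became 115 higher and 35 lower. The largest family left in that sum is miR159, with 17875.4 TPM at jointing and 50794.9 TPM at three-leaf. Its difference is therefore a part of the shift. miR159a.1 then lay just inside 2-fold, with a log2 fold change of -0.96, but it was scaled by a sum that holds it.

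Other abundant names mostly belong to the wheat and grass lineage. miR9672b, a wheat-lineage miRNA, had 3917.5 TPM at jointing and 949.1 TPM at three-leaf, 4.13-fold higher. miR9662a-3p, also a wheat-lineage name, had 1570.3 TPM at jointing, against 5345.9 TPM at three-leaf, and was 3.40-fold lower (3.36 to 3.45). The other names among the 10 most abundant, apart from miR167a, were less than 2-fold apart: miR7757-5p had 6141.7 TPM at jointing and 7700.7 TPM at three-leaf, miR5048-5p had 2874.4 and 5062.6 TPM in the same order, miR5062a 2651.2 and 4649.1 TPM, and miR9674b-5p 2904.8 and 4270.8 TPM. Of the 27 names over 1000 TPM in at least 1 library, 11 were more than 2-fold apart.

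Among the 5 families of phase change and flowering, miR172 and miR528 were higher at jointing, miR159 and miR5200 were lower, and miR156 with miR157 differed little. By single names, 6 of 13 were higher and 5 lower, beside 24.8% and 14.6% of all known names, and the median log2 fold change was 0.86, beside 0.29 over all known names listed in at least 1 library. The main miR156 guide strand, miR156a-5p, had 826.4 TPM at jointing, against 1145 TPM at three-leaf, 1.39-fold lower (1.36 to 1.41) and within the 2-fold limit. Summed over its names, miR156 and miR157 had 1058.0 TPM at jointing and 1239.2 TPM at three-leaf, a 1.17-fold difference. Its other names above 0 were each listed in 1 library of the pair: miR156d-3p had 213.1 TPM at jointing and miR157d-3p had 18.5 TPM, both listed at 0 at three-leaf, whereas miR156h-3p had 86.4 TPM and miR157d 7.8 TPM at three-leaf and both were listed at 0 at jointing.

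Both strands of miR172 were higher at jointing. miR172e-3p, the strand that pairs with AP2-like transcripts, had 36.3 TPM at jointing and 8.0 TPM at three-leaf, 4.54-fold higher (3.83 to 5.42). miR172a-5p, its partner strand, had 97.7 TPM at jointing and 13.6 TPM at three-leaf, 7.18-fold higher (6.34 to 8.18). The family sum was 134.0 TPM at jointing and 21.6 TPM at three-leaf. The partner strand was thus the more abundant of the pair in both leaves, 2.69 times the 3p strand at jointing and 1.70 times at three-leaf, and at the intermediate stages it stayed low, at 8.5 TPM at winter dormancy and 8.4 TPM at spring green-up.

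miR5200, a miRNA of the grass subfamily Pooideae that in Brachypodium targets FT, the mobile flowering signal, showed the opposite order. miR5200a-3p had 437.1 TPM at jointing, against 2298.1 TPM at three-leaf, 5.26-fold lower (5.14 to 5.38), and miR5200-5p had 149.2 TPM at jointing, against 371.1 TPM, 2.49-fold lower. In between, miR5200a-3p had 3789.9 TPM at winter dormancy and 531.2 TPM at spring green-up, so its high values were those of the first pair of stages and its low values those of the last pair. miR5200-5p no longer passed 2-fold when the libraries were scaled without miR168 (log2 fold change -0.77).

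miR528, which in rice targets a regulator of flowering time and also transcripts of copper-binding proteins, had the steepest difference among these families. miR528-5p had 426.7 TPM at jointing and 19.0 TPM at three-leaf, 22.5-fold higher (20.3 to 24.9). Its partner strand, miR528a-3p, had 81.7 TPM at jointing and 3.3 TPM at three-leaf, 24.8-fold higher (19.4 to 32.1). The levels were graded through the season, with miR528-5p at 44.4 TPM at winter dormancy and 114.4 TPM at spring green-up.

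**Figure D2:**
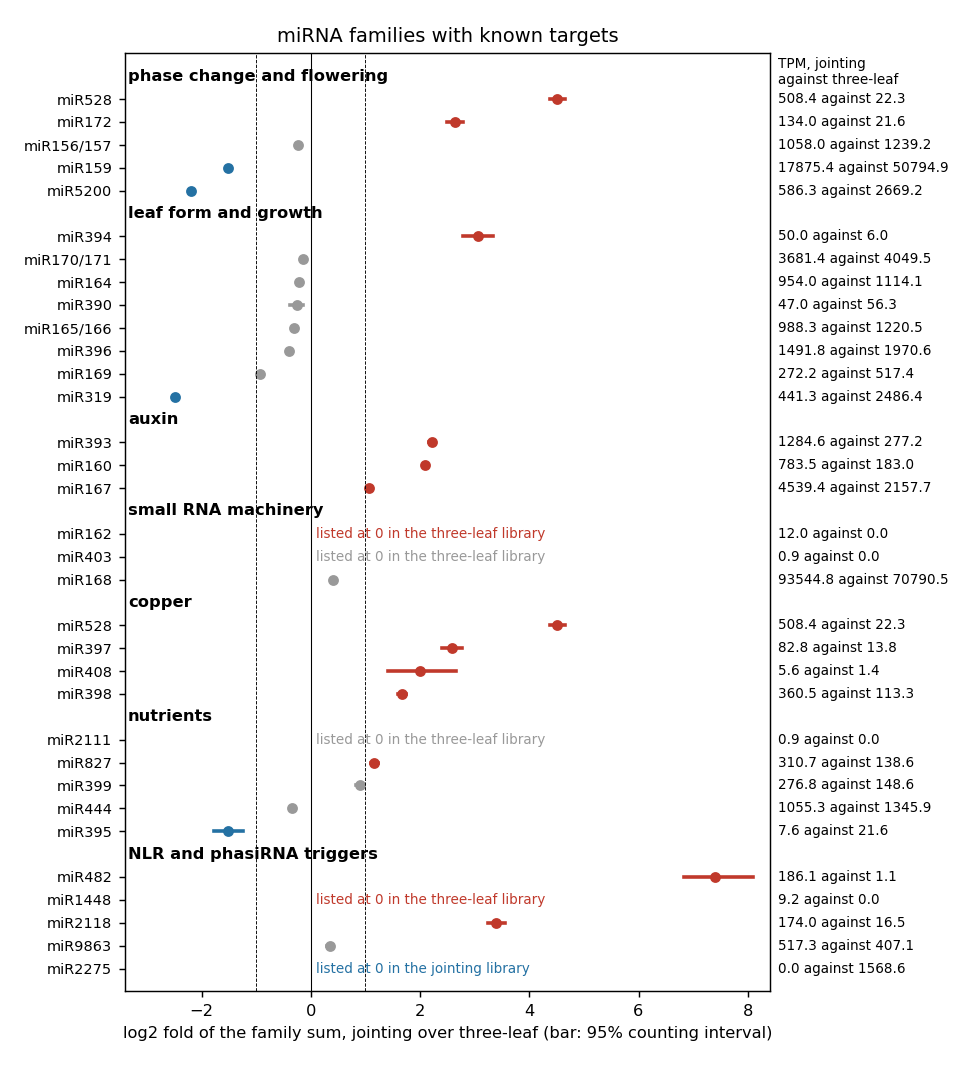
Log2 fold of the family sums of TPM, jointing over three-leaf, for the families with known targets grouped by role, with the sums printed at the right and bars for the 95% counting interval. Red is more than 2-fold higher at jointing, blue more than 2-fold lower and grey neither; miR528 stands under both of its roles, and all 4 copper families and all 3 auxin families lie right of the 2-fold line.

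All 3 families of the auxin pathway were higher at jointing, and their summed level was 6607.5 TPM, against 2617.9 TPM at three-leaf. miR160 targets the repressor-type auxin response factors ARF10, ARF16 and ARF17, miR167 targets ARF6 and ARF8, and miR393 targets the auxin receptors TIR1 and AFB2 in Arabidopsis. miR167a, the most abundant, had 4312.8 TPM at jointing and 2044.6 TPM at three-leaf, 2.11-fold higher (2.09 to 2.13). miR160a-5p had 763.6 TPM at jointing and 146.7 TPM at three-leaf, 5.21-fold higher (5.01 to 5.41). miR393-5p had 1273.7 TPM at jointing and 270.4 TPM at three-leaf, 4.71-fold higher (4.58 to 4.85).

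By single names 4 of 6 auxin miRNAs were higher and 0 lower, beside 24.8% and 14.6% of all known names, with a median log2 fold change of 1.04; the count compares 1 library with another, so no test stands beside it. The names not called were the partner strands miR160a-3p, with 19.9 TPM at jointing and 36.3 TPM at three-leaf, and miR393b-3p, with 10.9 and 6.8 TPM in the same order. The partner strand miR167e-3p had 226.6 TPM at jointing and 113.1 TPM at three-leaf, just past the limit with an interval of the fold from 1.91 to 2.11, and it fell within 2-fold when 1 TPM was added to each value. miR160 did not change evenly through the season, since miR160a-5p had 51.3 TPM at winter dormancy and 535.2 TPM at spring green-up.

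The copper miRNAs target transcripts of copper-binding proteins, laccases for miR397, copper/zinc superoxide dismutases for miR398 and plantacyanins for miR408, and are known to accumulate when copper is short. All 4 families, miR528 among them, were higher at jointing: 7 of 8 names were higher and 0 lower, beside 24.8% and 14.6% of all known names, with a median log2 fold change of 2.32 and a summed level of 957.3 TPM at jointing, against 150.8 TPM at three-leaf. miR397a had 51.1 TPM at jointing and 13.8 TPM at three-leaf, 3.70-fold higher (3.25 to 4.24), and its partner strand miR397-3p had 31.7 TPM at jointing and was listed at 0 at three-leaf. miR398a-3p, the strand that targets the superoxide dismutases, had 170.6 TPM at jointing and 75.2 TPM at three-leaf, 2.27-fold higher, while miR398f-5p had 189.9 and 38.1 TPM in the same order, 4.98-fold higher. miR408d was low throughout, with 5.6 TPM at jointing and 1.4 TPM at three-leaf, 4.00-fold higher with a wide interval (2.67 to 6.35). Since miR528 belongs to this list and to that of flowering, its values count in both.

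Families of leaf form and growth mostly stayed within 2-fold when their names were summed. miR164, which targets CUC2-like NAC factors of organ boundaries, had 954.0 TPM at jointing and 1114.1 TPM at three-leaf. miR165, which like miR166 targets HD-ZIP III factors of the upper leaf side, had 988.3 TPM at jointing and 1220.5 TPM at three-leaf, and miR170 and miR171, which target GRAS-domain factors, had 3681.4 and 4049.5 TPM in the same order. miR396, which targets growth-regulating factors, had 1491.8 TPM at jointing and 1970.6 TPM at three-leaf. None of these sums passed 2-fold in either direction.

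Exceptions in this group were miR394 and miR319. miR394a, which targets the F-box gene LCR in Arabidopsis, had 49.2 TPM at jointing and 5.1 TPM at three-leaf, 9.65-fold higher (7.85 to 11.9). miR319, which targets TCP factors that limit leaf growth, was lower as a family, with 441.3 TPM at jointing, against 2486.4 TPM at three-leaf, 5.63-fold lower (5.51 to 5.76). Of 32 names in the list, 8 were higher and 6 lower, which is near the shares of all known names (24.8% and 14.6%), and the median log2 fold change was -0.20.

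The miR319 names replaced each other between the libraries. miR319b-3p had 2474.2 TPM at three-leaf, 462.3 TPM at winter dormancy and 58.2 TPM at spring green-up, and was listed at 0 at jointing. miR319a-3p had 234.1 TPM and miR319c 207.2 TPM at jointing, and both were listed at 0 at three-leaf. The sequences given for miR319a-3p and miR319c are identical, and that of miR319b-3p differs from them by 1 base over the stretch where they overlap, in which its seed is shifted by 1 position as printed above. The assignment of reads to such close names is therefore uncertain, and the family sum is the firmer value.

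A similar exchange was seen in minor strands of other families. In miR169, which targets NF-YA factors, miR169b-3p had 103.9 TPM at jointing and was listed at 0 at three-leaf, and miR169f-3p had 103.4 TPM at three-leaf and was listed at 0 at jointing. The guide strand miR169g had 158.9 TPM at jointing, against 411.1 TPM at three-leaf, 2.59-fold lower, and the family sum of 272.2 TPM at jointing, against 517.4 TPM, was 1.90-fold lower. In miR396, miR396b-3p had 16 TPM at jointing and was listed at 0 at three-leaf, whereas miR396c-3p had 32.7 TPM at three-leaf and was listed at 0 at jointing. In miR395, which targets ATP sulfurylases and a sulfate transporter, miR395a had 7.6 TPM at jointing only and miR395b 21.6 TPM at three-leaf only, with 0 mismatches where their sequences overlap.

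Over the whole table, 8 of the 53 known names called higher and listed only at jointing had a near-identical name that was above 0 at three-leaf, and 15 had a member of the same family there. Of the 25 names called lower and listed only at three-leaf, 5 had a near-identical name above 0 at jointing and 11 a family member. Names were taken as near-identical when their sequences shared a stretch of 18 nt or more in which 2 or fewer bases differed.

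Further families of the small RNA machinery and of nutrient supply were mixed. miR162a-3p, which targets the Dicer-like enzyme DCL1 in Arabidopsis, had 12 TPM at jointing and was listed at 0 at three-leaf. miR827 had 310.7 TPM at jointing and 138.6 TPM at three-leaf, 2.24-fold higher, and miR399b had 276.8 and 148.6 TPM in the same order, 1.86-fold; both are known to be induced by phosphate shortage. miR444b.1, a grass miRNA that targets MADS-box factors, had 1055.3 TPM at jointing and 1345.9 TPM at three-leaf. Of the 7 nutrient names, 2 were higher and 1 lower, beside 24.8% and 14.6% of all known names, and their summed levels were nearly equal, at 1651.3 TPM at jointing and 1654.7 TPM at three-leaf.

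Names of families that target NLR resistance genes, or that trigger phased small interfering RNAs, differed widely and in both directions. miR482b had 176.0 TPM at jointing and 1.1 TPM at three-leaf, and the family sum with miR482b-3p was 186.1 TPM at jointing and 1.1 TPM at three-leaf, 169-fold higher with an interval from 113 to 274. In miR2118, a relative of miR482, the name miR2118 itself had 87.8 TPM and miR2118a-3p 86.2 TPM at jointing and both were listed at 0 at three-leaf, while miR2118c had 16.5 TPM at three-leaf and was listed at 0 at jointing; the family sum was 10.5-fold higher (9.43 to 11.8). miR2275b-5p, from a family that triggers phased small RNAs in grass anthers, had 1568.0 TPM at three-leaf and 1831.5 TPM at winter dormancy. It was listed at 0 at spring green-up and at jointing. With the other strand, miR2275b-3p, the family sum was 1568.6 TPM at three-leaf, so nearly all of it was the 5p strand. Whether the 5p strand triggers phased small RNAs was not tested. miR9863a-3p, which in barley and wheat targets Mla-type resistance genes, had 424.2 TPM at jointing and 336.3 TPM at three-leaf. Of the 10 names in this list, 5 were higher and 2 lower, beside 24.8% and 14.6% of all known names, with a median log2 fold change of 3.18 over the 10 and of 0.40 over those listed in both libraries.

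miR530, which in rice targets a gene for a Plus-3 domain protein, was the most abundant of the steeply different families. miR530-5p had 1316.3 TPM at jointing and 77.0 TPM at three-leaf, 17.1-fold higher with a lower bound of 16.2, and miR530-3p had 1254.7 TPM at jointing and 50 TPM at three-leaf, 25.1-fold higher (23.6 to 26.7). The family ranked 10 by level at jointing and 60 at three-leaf. At winter dormancy the strands had 42.5 TPM (5p) and 43.1 TPM (3p) and at spring green-up 467.0 TPM (5p) and 987.2 TPM (3p), so both were low through winter and high from spring on.

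Among names listed in both libraries with over 50 TPM in at least 1, the largest folds belonged to a small set that was nearly unlisted in the seedling. miR2949a-5p had 160.2 TPM at jointing and 1.0 TPM at three-leaf (interval of the fold 105 to 267), miR6118-3p had 167.2 and 1.2 TPM (94.9 to 221), miR2947 had 86.2 and 0.6 TPM (83.3 to 283), and miR535a had 89.7 and 0.9 TPM (lower bound 63.8), each with jointing before three-leaf, and miR482b belongs with them. At the intermediate stages these 5 names ran close together, between 1.1 and 2.7 TPM at winter dormancy and between 4.0 and 13.2 TPM at spring green-up. miR2095-3p, at 64.4 TPM at jointing and 2.3 TPM at three-leaf, followed with an interval of 20.8 to 38.0.

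miR2947 and miR2949 are among the families that were first described in cotton. A list of 13 such families, with 16 names, was therefore examined, and it was chosen after their values were seen. The species of origin of names could not be looked up, so the list may leave out other families of this kind. Of these names, 15 were above 0 at jointing and 3 at three-leaf, beside 294 and 240 of all 371 known names. By the 2-fold rule 9 were higher and 0 lower, beside 24.8% and 14.6% of all known names. The 9 include miR2947 and miR2949a-5p, whose large folds led to the list, and both names of miR2950. They also include miR3476-5p, at 13 TPM at jointing, and miR7505, at 42.0 TPM at jointing, both listed at 0 at three-leaf. In this list miR7512 had 53.7 TPM at jointing and 79.6 TPM at three-leaf. Without it the list summed to 396.0 TPM at jointing and 1.6 TPM at three-leaf. The same sum was 73.1 TPM at winter dormancy and 14.8 TPM at spring green-up. Whether small RNA of another plant had a part in these values was not tested.

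Some abundant names were listed at 1 end of the comparison only. miR3441-5p.1 had 957.6 TPM, miR5240 844.4 TPM and miR8135 688.4 TPM at jointing, and each was listed at 0 at the other 3 stages. At the three-leaf stage miR1509b had 400.3 TPM and miR4410 265.3 TPM, both listed at 0 at jointing, behind miR319b-3p and miR2275b-5p. miR1033a, which the rule for named miRNAs did not select and which was singled out after its values were seen, had 1563.3 TPM at jointing and 88.2 TPM at three-leaf.

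At the low end miR9778 was set apart from all other known names listed in both libraries. It had 13.9 TPM at jointing, against 618.0 TPM at three-leaf, 44.5-fold lower (39.7 to 50.1), with 753.1 TPM at winter dormancy and 414.2 TPM at spring green-up. miR165a-5p, the minor strand of miR165, had 25.3 TPM at jointing, against 113.5 TPM at three-leaf, 4.49-fold lower, although the guide strand miR165a-3p had 963.0 TPM at jointing and 1107.0 TPM at three-leaf. Smaller differences were those of miR5072, with 38.8 TPM at jointing and 119.3 TPM at three-leaf (2.84 to 3.33), and of miR6300, with 67.8 and 197.1 TPM in the same order (2.74 to 3.09).

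**Figure D3:**
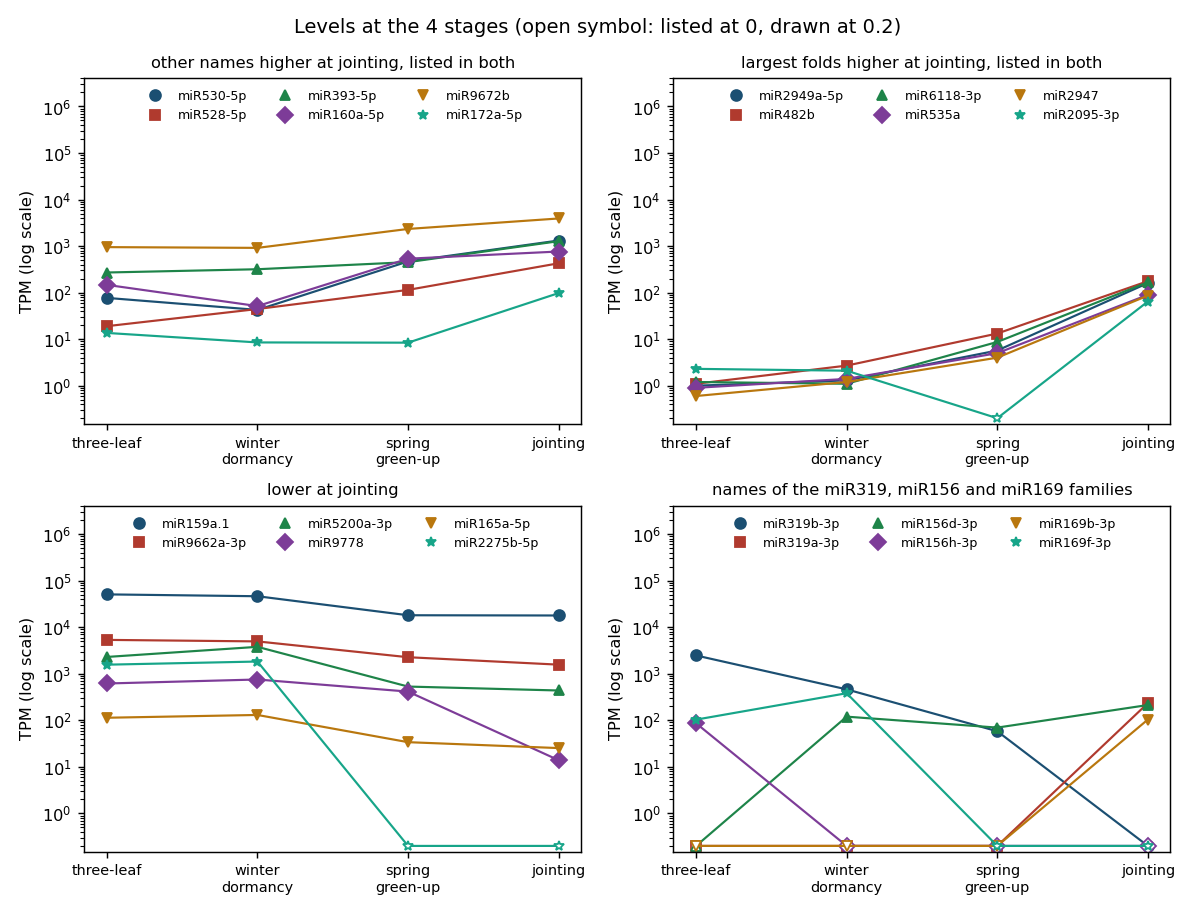
Level in TPM (log scale) of 24 named miRNAs at the 4 stages in the order of the season, with open symbols drawn at 0.2 TPM for a listed 0. The upper panels show names higher at jointing than at three-leaf, the lower left panel names lower at jointing, and the lower right panel names of the miR319, miR156 and miR169 families, of which miR319b-3p and miR319a-3p are listed at opposite ends.

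The levels at winter dormancy and spring green-up give the course between the ends. Of the 92 higher names, which were chosen for being high at jointing, jointing was the highest of the 4 stages for 83. At both winter dormancy and spring green-up 33 were listed at 0, and 2 of these were above 0 at three-leaf. Of the 39 higher names listed at both ends, winter dormancy lay on the jointing side of the middle of the fold for 3 and spring green-up for 15. For the 29 lower names listed at both ends, winter dormancy lay on the jointing side for 6 and spring green-up for 21. All 4 stages ran in 1 order for 10 of the 39 and 11 of the 29. These are descriptions of 4 libraries that share the same ends, and the stages in between were not tested.

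Both strands of the miR167, miR172, miR398, miR528 and miR530 duplexes were more than 2-fold higher at jointing. In miR528 the ratio of the 5p strand to the 3p strand was nearly the same in both leaves, 5.22 at jointing and 5.76 at three-leaf, and in miR167 the ratio of miR167a to miR167e-3p was 19.0 at jointing and 18.1 at three-leaf.

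In other duplexes the balance moved. miR160a-5p stood to miR160a-3p as 38.4 to 1 at jointing and as 4.04 to 1 at three-leaf, and miR393-5p stood to miR393b-3p as 117 to 1 at jointing and as 39.8 to 1 at three-leaf. miR390, which triggers TAS3 small RNAs that target auxin response factors, went the other way: miR390a-5p had 36.6 TPM at jointing and 52.3 TPM at three-leaf, its partner miR390-3p had 10.4 TPM at jointing and 4.0 TPM at three-leaf, and the ratio was 3.52 at jointing and 13.1 at three-leaf. The ratio of miR398a-3p to miR398f-5p was 0.90 at jointing and 1.97 at three-leaf. The strands named here were matched by sequence with at most 5 unpaired bases and may come from different members of a family.

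**Figure D4:**
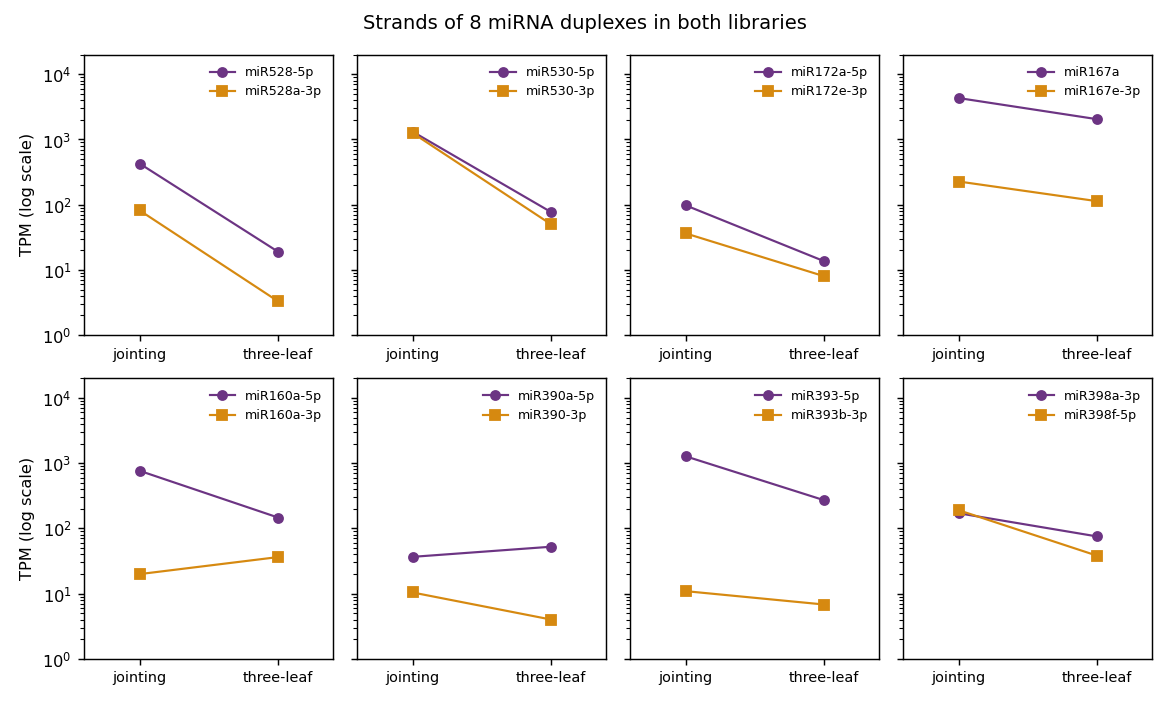
Level in TPM (log scale) of both strands of 8 miRNA duplexes in the jointing and the three-leaf library, 1 point per library. The lines of miR528 and of miR167 run nearly in parallel, those of miR530 and miR172 slope the same way with unequal steepness, and those of miR160 and miR390 run in opposite directions.

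Of 47 wheat-lineage names, most of them numbered from miR9652 upwards, 7 were higher and 8 lower, beside 24.8% and 14.6% of all known names, and the median log2 fold change was 0.11. miR9676-5p had 602.5 TPM at jointing and 67.8 TPM at three-leaf, 8.89-fold higher (8.41 to 9.40). The miR9672 family, with miR9672a-3p at 283.4 TPM at jointing and 47.4 TPM at three-leaf, ranked 6 by level at jointing and 20 at three-leaf. On the lower side miR9664-3p had 8.1 TPM at jointing, against 45.9 TPM at three-leaf, and miR9675-3p had 126.6 TPM, against 329.4 TPM. Members of one family could part ways, as miR9653a-3p had 219.3 TPM at jointing and 45.0 TPM at three-leaf while miR9653b had 506.6 and 535.3 TPM in the same order.

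Of 30 grass names that resemble inverted-repeat transposons, 1 was higher (miR1131, with 125.7 TPM at jointing and 59.8 TPM at three-leaf) and 3 were lower, beside 24.8% and 14.6% of all known names, and the median log2 fold change was -0.03. Their summed level was 3402.3 TPM at jointing and 3341.3 TPM at three-leaf. The list sum therefore differed less between the leaves than that of any other list above except the nutrient families.

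By length, the sequences of 20 to 22 nt held 95.8% of the summed known TPM at jointing and 95.2% at three-leaf. Of 58 names of 22 nt, a length that is known to trigger secondary small RNAs, 20 (34.5%) were higher and 11 (19.0%) lower, beside 24.8% and 14.6% of all known names, and 48.3% of the 58 were listed in 1 library only; the difference from other lengths was not tested. Of 184 names of 21 nt, 50 were higher and 25 lower, and of 93 names of 24 nt, 14 were higher and 12 lower. Over all known names, those of 22 nt held 10.04% of the summed TPM at jointing and 9.58% at three-leaf, and those of 21 nt held 84.6% at jointing and 84.4% at three-leaf. With miR168 left out, 22-nt names held 21.4% of the remaining TPM at jointing and 15.2% at three-leaf, and 21-nt names held 67.2% and 75.3%, jointing before three-leaf. Of the 158 names that begin with U, the base preferred by AGO1, 46 were higher (29.1%, beside 24.8% of all known names) and 19 lower.

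Of the 82 predicted miRNAs, 14 (17.1%) were higher at jointing and 21 (25.6%) lower, a balance that turned round when the libraries were scaled without miR168 (20 higher and 14 lower) and among those over 50 TPM in 1 library (5 higher and 4 lower). The median log2 fold change was -0.33 over those listed in at least 1 library, and they summed to 3205.9 TPM at jointing and 5328.8 TPM at three-leaf. Of the 27 putative ones, for which no miRNA* was found, 1 was higher and 13 were lower. Among these 27, 22 were listed in both libraries, 5 at three-leaf only and 0 at jointing only. No putative name could therefore count as higher by being unlisted at three-leaf. Their median was -0.99 over those listed in at least 1 library and -0.58 over those listed in both. They summed to 1839.4 TPM at jointing and 3328.7 TPM at three-leaf. Of the 55 with a miRNA*, 13 were higher and 8 lower, and 32 were listed in both libraries, 12 at jointing only and 5 at three-leaf only. Their median was 0.003 over those listed in at least 1 library and -0.24 over those listed in both. The sums were 1366.5 TPM at jointing and 2000.1 TPM at three-leaf. Of the 6 predicted names called higher and listed only at jointing, 2 had a near-identical name above 0 at three-leaf. Among the 9 called lower and listed only at three-leaf, 1 had such a name above 0 at jointing. novel_miR3791 and novel_miR5756, with a miRNA*, match the putative novel_miR1306 with 0 mismatches where they overlap. These 3 summed to 31.5 TPM at jointing and 24.4 TPM at three-leaf. The sequences that follow are those of the predicted miRNAs with the largest level or fold, and of pairs that share bases with a known name; positions of the precursors are those of the deposited table, on the Chinese Spring genome of Ensembl Plants release 31.
novel_miR1560: uAAACCUUcacaaauucccuug
novel_miR1202: uUCUUCAAguacuccacuuuu
novel_miR1356: uUCUUCAAguacuccacuuu
novel_miR523: uACGGCCUgaugacauccacg
novel_miR5169: uAAUCUUCuggauauaugcuug
novel_miR692: uCAGGUCGcccccgcuggagc
novel_miR1250: uCCCAUAAuauaagagcguuu
miR9676-5p: uGGAUGUCaucguggccguaca
miR818a: cAAAAACGcucuuauauuauggga

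novel_miR1202, whose precursor lies on the plus strand of chromosome 6A (54567630 to 54567708), was the most abundant predicted miRNA at both stages, with 1012.5 TPM at jointing and 2359.8 TPM at three-leaf, 2.33-fold lower. novel_miR1356, from the minus strand of chromosome 6D (50938062 to 50938139), has the same sequence without the last base and the same seed, and had 24 TPM at jointing, against 62.5 TPM at three-leaf. A read that ends 1 base early could count for either. novel_miR1560, from chromosome 7D (154998364 to 154998643), had 757.2 TPM at three-leaf and 777.6 TPM at winter dormancy and was listed at 0 at spring green-up and at jointing, as was miR2275b-5p.

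On the higher side novel_miR523, a putative miRNA from chromosome 3B (200808871 to 200808997), had 377.8 TPM at jointing and 52.3 TPM at three-leaf, 7.22-fold higher (6.77 to 7.71). A stretch of 11 of its bases is the exact complement of bases in miR9676-5p, and the levels of both were several-fold higher at jointing, by 7.22-fold and 8.89-fold. novel_miR5169, from chromosome 3D (112934107 to 112934417), had 88.6 TPM at jointing and was listed at 0 at three-leaf. novel_miR692, from chromosome 3B (663360013 to 663360132), had 6.5 TPM at jointing and 0.6 TPM at three-leaf, 10.8-fold higher with an interval from 6.11 to 21.8, and it shares a run of 14 bases with miR398a-3p, which was 2.27-fold higher.

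On the lower side novel_miR866, from chromosome 4B (180483876 to 180484001), had 0.4 TPM at jointing, against 14 TPM at three-leaf, and the 35.0-fold difference had an interval from 17.6 to 75.0 because few reads stand behind the jointing value. novel_miR929, also on chromosome 4B (306572148 to 306572254), had 1.5 TPM at jointing, against 18.5 TPM, 12.3-fold lower (8.57 to 18.1). All 21 bases of novel_miR1250 are the exact complement of bases in miR818a; novel_miR1250 had 8.3 TPM at jointing, against 19.5 TPM at three-leaf, and miR818a was listed at 0 at jointing, against 32.1 TPM at three-leaf. novel_miR1255 shares a run of 14 bases with miR396c-3p, and both were listed at 0 at jointing, with 11.2 TPM and 32.7 TPM at three-leaf. Shared or complementary bases alone do not show that a pair comes from 1 precursor. The hairpin precursors that the authors predicted for novel_miR523, novel_miR692 and novel_miR1255 each hold the full sequence of the known name paired with it above. These predicted names may therefore be strands or shifted reads of hairpins of known miRNAs, which was not tested. The predicted precursor of novel_miR1250 does not hold miR818a in full.

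**Figure D5:**
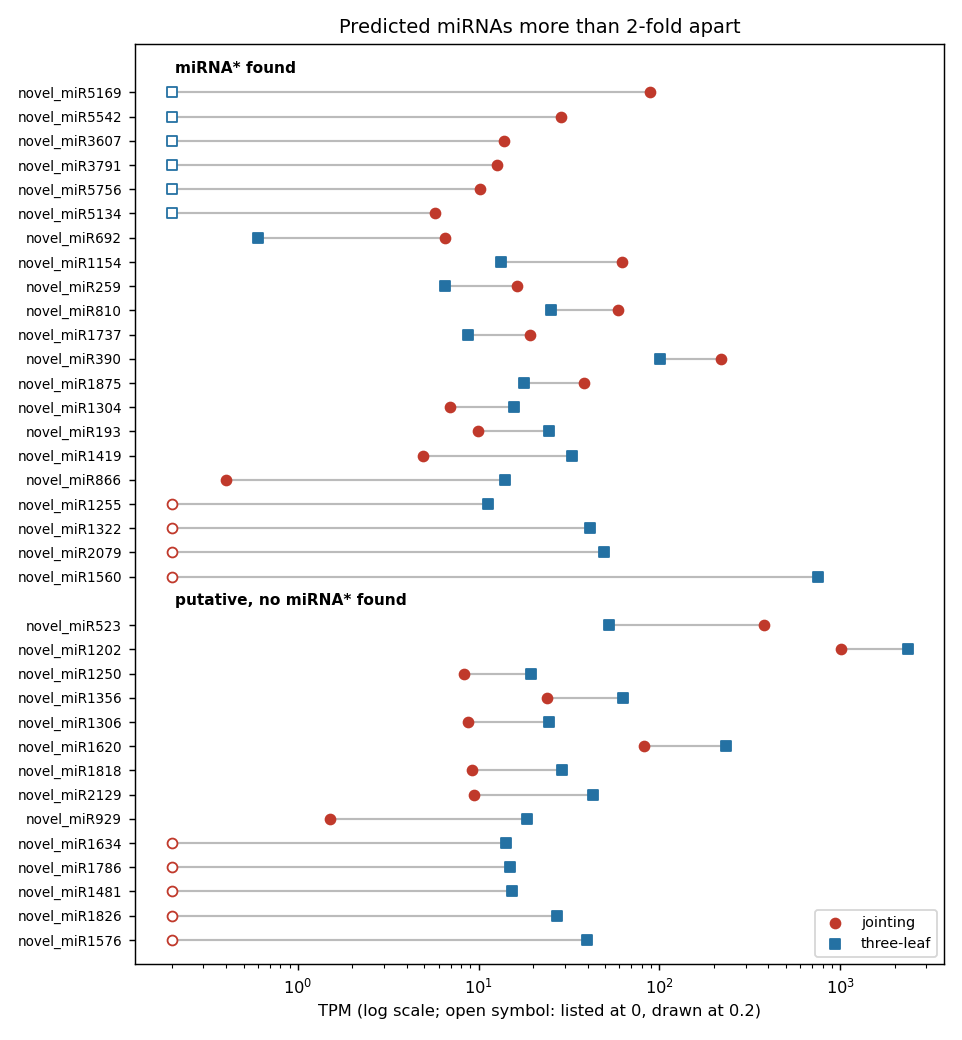
Level in TPM (log scale) of the 35 predicted miRNAs that differed more than 2-fold, at jointing (red circles) and at three-leaf (blue squares), with open symbols drawn at 0.2 TPM for a listed 0. In the lower block of putative miRNAs without a miRNA*, novel_miR523 alone has its jointing value to the right.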

How the data were processed

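The authors removed adaptors and low-quality reads, kept reads of 18 to 30 nt sequenced on a BGISEQ-500RS instrument, removed other RNA classes with SOAP, matched the rest to plant miRNAs of miRBase 21 with few mismatches allowed, and predicted further miRNAs with MIREAP on the Ensembl Plants 31 genome. The authors deposited RPM, with mapped reads as the base and 1 decimal kept, written as TPM here; whole reads could not be recovered from them. Entries that repeat miR531 and miR5050 were counted once.

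Folds were taken after values under 3 reads were raised to 3 reads, and called past 2-fold with over 5 TPM in 1 library. Reads were estimated as value times mapped reads, and Clopper-Pearson intervals (95%) were computed on them; they cover counting error only, since PCR copies are not independent molecules. With 1 pooled library per stage there is no test across replicates.

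Named miRNAs are the members of the role lists, per direction the 8 known names with the largest fold over 50 TPM and the 6 highest listed in 1 library, 6 and 4 predicted ones chosen likewise, and the 10 most abundant. The members and lists were chosen with earlier results of these data known. Of the listed families, 7 were not found in the table. Known sequences come from the study's list, predicted ones from the deposited table. Alternatives were other pseudocounts, filters, scalings and fold limits. The scripts were tested on simulated data. Python 3.11.15, numpy 2.4.6, pandas 2.3.3, scipy 1.17.1 and matplotlib 3.10.9 were used.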

Additional observations from a re-analysis of the deposited data

How the results depend on the processing

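Of 76 alternative counts of names past the limit, 60 lay within 1.5 times the value reported, and 16 did not; the balance of the predicted miRNAs, 14 higher and 21 lower as reported, turned round scaled without miR168 and over 50 TPM. With listed zeros treated as missing, 39 known names were higher and 29 lower, 8 predicted miRNAs were higher and 12 lower, and 33 families were higher. Over 50 TPM in 1 library, 39 known names were higher and 26 lower, 5 predicted were higher and 4 lower, and 28 families were higher and 20 lower. At a 3-fold limit 35 known names were lower, 9 predicted were higher and 25 families were lower. Scaled without miR168, 115 known names were higher and 35 lower, 20 predicted were higher and 14 lower, and 90 families were higher and 26 lower, as all log2 folds moved by 0.54; scaling to the summed miRNAs moved them by 0.13 and median-of-ratios scaling by -0.04.

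Under the scaling without miR168, log2 fold changes that ended inside 2-fold were -0.96 for miR159a.1, -0.83 for miR169g, -0.99 for miR1125, -0.77 for miR5200-5p, -1.0 for miR6300, -0.91 for miR9652-3p, -0.98 for miR9663-5p, -0.84 for miR9675-3p, -0.96 for novel_miR1620 and -0.96 for the miR395 family. miR159a.1 is itself a large part of the sum used there, so its value is not an independent check of its fold. miR167e-3p came to 0.97 with median-of-ratios scaling. In all, 54 of 1551 recomputed folds of 269 names and families changed their side of the limit. No paired analysis was possible because each stage has 1 library. Depth limits the lowest values: a listed 0 can hide a few reads, and intervals cover counting error only, not the difference between plants or library preparations.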

Other observations

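Some names without a matching sequence kept nearly the same level at every stage, a pattern looked for after the values were seen. Among 80 known and predicted names over 50 TPM in all 4 libraries, 2 of 3160 pairs stayed within 10% of each other throughout. miR164a had 1110.5, 2422.5, 2130.8 and 952.5 TPM from the three-leaf stage through winter dormancy and spring green-up to jointing, and miR165a-3p had 1107.0, 2429.2, 2133.1 and 963.0 TPM, with a largest gap of 1.1%. miR2199 had 186.2, 288.9, 70.2 and 186.8 TPM in the same order, and miR6224a-5p had 185.0, 292.4, 66.4 and 182.5 TPM, with a largest gap of 5.72%. The points of each pair share their libraries and depth.

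Identical sequences were in some cases listed under separate names with separate values. miR6220-5p and miR6224a-5p share 1 sequence, with 48.2 and 182.5 TPM at jointing and 44.2 and 185.0 TPM at the three-leaf stage. miR9783 and miR9783-3p also share 1 sequence, with 38.4 and 16.5 TPM at jointing, and 32.3 TPM and a listed 0 at the three-leaf stage.

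miR2111a-3p, which in Arabidopsis is induced by phosphate shortage, was near or at 0 at both ends of the season and had 1385.5 TPM at spring green-up.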
